A study of Mus musculus with 12 samples.

Results

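The 10 genes described here are markers of the cells that line liver blood vessels. They were the rows of a deposited table of 27912 genes whose symbols were Stab1, Stab2, Lyve1, Clec4g and Fcgr2b (sinusoidal), Pecam1 and Kdr (endothelium-wide), and Plvap, Cd34 and Vwf (capillary). Each symbol matched 1 gene, and all 10 passed the filter on low counts. Bulk RNA sequencing of liver compared CCR1-KO mice (knockout of CCR1, a receptor for inflammatory chemokines; replicates 65, 66 and 67) with WT mice (C57BL/6; replicates 62, 63 and 64), 3 libraries in each group. All were males, 8 weeks old at the start, kept for 12 weeks on the CL diet (high in fat and cholesterol, with cholate). The labels describe 12 libraries in 4 groups; the other 6 were not analysed here, and neither were livers of chow-fed mice. The sources used here do not give the strain of the CCR1-KO mice, which part of Ccr1 was deleted or whether WT mice were littermates. Genotype and genetic background therefore cannot be told apart.

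Each library held between 74699391 and 79154085 counted reads. Ccr1 itself had 11, 4 and 14 reads in CCR1-KO and 100, 23 and 123 reads in WT, an adjusted p of 0.075 (edgeR). Alb, the albumin gene that hepatocytes transcribe at high levels, had 56004 ± 5854 CPM in CCR1-KO and 62532 ± 6306 CPM in WT (SD, n = 3 each). CPM are read counts relative to the library total after TMM scaling, a correction for differences in library composition. Log2 fold changes are CCR1-KO over WT with their standard error (SE) and 95% interval, and p-values come from the quasi-likelihood test of edgeR, adjusted by Benjamini and Hochberg's method across the 17729 tested genes, with a threshold of 0.05. The labels number the libraries but do not say that each is a separate mouse, so p-values measure the spread between these samples, which may be technical.

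The sinusoids of the liver are lined by endothelial cells with open pores (fenestrae) and little basement membrane, so that plasma reaches hepatocytes directly. These cells clear waste from the blood through scavenger receptors such as the stabilins and through lectins and Fc receptors. In chronic liver injury they can lose their pores and take on features of ordinary capillaries, a change called capillarization, in which markers such as CD34, PLVAP and von Willebrand factor become more prominent and a basement membrane is laid down. No histology or pore count is in these data, and in RNA from whole liver, fewer cells of a type and less RNA per cell cannot be told apart.

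Plvap and Cd34 were lower in CCR1-KO livers than in WT livers, while none of the 5 sinusoidal markers passed the test. Of the 10 genes, 2 fell, 0 rose and 8 did not pass. Over all tested genes 6.44% passed, 3.61% as lower and 2.83% as higher. Of the 10 log2 fold changes 8 were negative, as were 49.9% of those of all tested genes. In the same 2 genes, and no other of the 10, the CCR1-KO and WT libraries did not overlap; among all tested genes 17.4% were apart in that way with CCR1-KO lower. The median log2 fold change was -0.79 over the 3 capillary markers, -0.29 over Pecam1 and Kdr, -0.27 over the 5 sinusoidal markers and 0.0017 over all tested genes. Replicate 65 had the highest CCR1-KO value in 8 of the 10 genes, and replicate 64 the lowest WT value in 7.

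**Figure D1:**
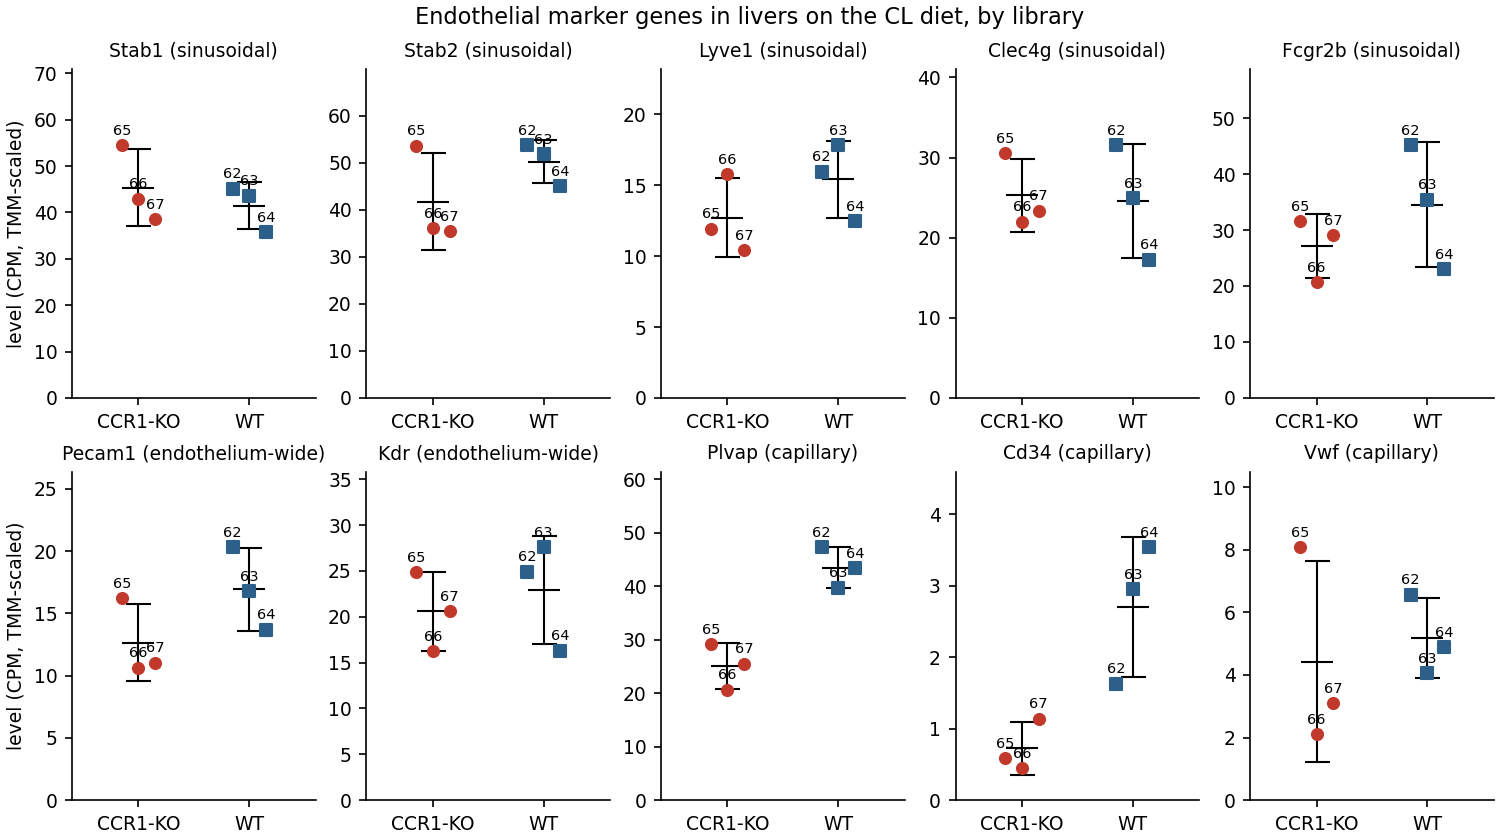
Level of each marker (CPM after TMM scaling, axes from 0) in the 3 CCR1-KO libraries (circles) and the 3 WT libraries (squares), with replicate numbers, group mean (horizontal line) and SD (bars). Plvap and Cd34 are the panels in which the groups do not overlap.

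Plvap encodes a membrane glycoprotein that forms the diaphragms of endothelial pores and caveolae. It lies on chromosome 8, 71497765 to 71511752, minus strand (GRCm38). Plvap had 29.2, 20.7 and 25.5 CPM in CCR1-KO replicates 65, 66 and 67, against 47.3, 39.7 and 43.4 CPM in WT replicates 62, 63 and 64. The highest CCR1-KO library lay below the lowest WT library, and on average CCR1-KO reached 57.8% of the WT level. Its log2 fold change was -0.79 ± 0.15 (SE; 95% interval -1.14 to -0.44; adjusted p = 0.027, edgeR). The call was kept in 1 of the 6 fits that left out 1 library, that without CCR1-KO replicate 65, with adjusted p between 0.011 and 0.107 and the log2 fold change between -0.91 and -0.67.

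Cd34 encodes a sialomucin of the surface of capillary endothelium, and of blood progenitor cells and some fibroblasts as well. It lies on chromosome 1, 194938819 to 194961279, plus strand. Its levels were low, with 47, 29 and 68 reads in CCR1-KO replicates 65, 66 and 67, against 134, 261 and 311 reads in WT replicates 62, 63 and 64. After scaling, Cd34 had 0.588, 0.444 and 1.14 CPM in CCR1-KO and 1.63, 2.95 and 3.54 CPM in WT. CCR1-KO replicate 67 came closest to WT replicate 62, and both groups were widely spread, their highest library 2.56 times the lowest in CCR1-KO and 2.17 times in WT. On average CCR1-KO reached 26.8% of the WT level, a log2 fold change of -1.91 ± 0.45 (95% interval -2.95 to -0.86; adjusted p = 0.049, edgeR), just inside the threshold. The call was kept in 1 of 6 fits without 1 library, that without CCR1-KO replicate 67 (adjusted p 0.049 to 0.167) and missed with median-ratio scaling (adjusted p = 0.051).

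Vwf encodes von Willebrand factor, the multimeric clotting protein of larger vessels and platelets (chromosome 6, 125546774 to 125686679, plus strand). Vwf had 8.08, 2.12 and 3.10 CPM in CCR1-KO, against 6.57, 4.06 and 4.89 CPM in WT. CCR1-KO replicate 65 was the highest of all 6 libraries and replicates 66 and 67 the lowest, so the groups overlapped. The log2 fold change was -0.22 ± 0.47 (95% interval -1.31 to 0.87; adjusted p = 0.82, edgeR). Without CCR1-KO replicate 65 it was -0.99 (adjusted p = 0.071), and without replicate 66 it was 0.12. Ly6a, another capillary surface gene, had its highest value in CCR1-KO replicate 65 too, at 10.9 CPM against 2.01 and 2.68 CPM in the other two. The summed level of platelet and megakaryocyte genes had another order, at 9.23, 11.4 and 6.71 CPM in CCR1-KO replicates 65, 66 and 67. Most of that sum was Itgb3 (5.44, 7.05 and 3.48 CPM) and Itga2b (2.93, 3.22 and 2.51 CPM). Ppbp, at a low level, was the only gene of that list highest in replicate 65 (0.300, 0.184 and 0 CPM). Pf4 had 0.175, 0.337 and 0.117 CPM, and Gp1ba 0.375, 0.475 and 0.602 CPM. The part of platelets in the Vwf level was not tested.

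The 250 bases before a RefSeq start (GRCm38.p6) were matched for 6 of the 10 genes, Stab1, Stab2, Clec4g, Fcgr2b, Kdr and Cd34; Lyve1, Pecam1, Plvap and Vwf were not matched. The RefSeq start lay within 10 bases of the gene's start in the deposited table for 3 of them, Stab1, Kdr and Cd34. It lay 83 bases inside the gene for Stab2 and 476 bases inside for Fcgr2b, and outside the gene for Clec4g, and these 3 windows were left out. The sequence is shown for Cd34, the capillary marker that fell, and for Stab1, a sinusoidal marker that did not pass, so that both can be compared. Both are written 5′ to 3′ on the gene's strand, and capitals mark AGGAAG or its reverse complement CTTCCT, a core sequence bound by ETS factors, a family that includes regulators of endothelial genes.
Cd34: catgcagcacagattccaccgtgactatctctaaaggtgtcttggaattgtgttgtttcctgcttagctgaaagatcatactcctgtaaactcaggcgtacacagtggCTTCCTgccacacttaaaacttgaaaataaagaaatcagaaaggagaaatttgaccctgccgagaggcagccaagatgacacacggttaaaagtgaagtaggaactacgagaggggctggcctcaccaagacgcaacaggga
Stab1: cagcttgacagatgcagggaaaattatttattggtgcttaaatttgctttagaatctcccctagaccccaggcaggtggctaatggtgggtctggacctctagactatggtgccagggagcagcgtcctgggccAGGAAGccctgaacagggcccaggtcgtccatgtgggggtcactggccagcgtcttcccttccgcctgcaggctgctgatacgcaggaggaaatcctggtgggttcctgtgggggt

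The Cd34 window is chr1:194938571-194938820 (plus strand), and that of Stab1 is chr14:31168642-31168891 (minus strand). Each holds 1 match, beginning 142 bases before the RefSeq start in Cd34 and 116 in Stab1. Searched on both strands, AGGAAG was in 2 of the 3 windows kept, as in 29.5% of all 32851 windows of that length. The letters AGATAA (bound by GATA factors) were in 0 of the 3 and in 9.99% of all, and CCACCC (bound by KLF factors) in 1 of the 3 and in 28.1% of all. These are letter matches only, and Cd34 and Stab1 hold the ETS letters alike.

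Stab1 and Stab2 encode the stabilins, large scavenger receptors; Stab2 takes up hyaluronan, and Stab1 is made by some macrophages as well. Stab1 (chromosome 14, 31139013 to 31168641, minus strand) had 54.5, 43.0 and 38.5 CPM in CCR1-KO, against 45.1, 43.6 and 35.8 CPM in WT. The groups overlapped, and the log2 fold change was 0.13 ± 0.16 (95% interval -0.25 to 0.50; adjusted p = 0.67, edgeR). Stab2 (chromosome 10, 86841198 to 87008025, minus strand) had 53.7, 36.1 and 35.5 CPM in CCR1-KO, against 53.8, 51.9 and 45.1 CPM in WT. CCR1-KO replicates 66 and 67 lay below every WT library, while replicate 65 was level with the highest WT library. The log2 fold change of Stab2 was -0.27 ± 0.18 (95% interval -0.68 to 0.15; adjusted p = 0.40, edgeR). Without CCR1-KO replicate 65 it was -0.49 and passed at an adjusted p of 0.047.

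Lyve1 encodes a hyaluronan receptor shared with lymphatic endothelium and some macrophages (chromosome 7, 110850607 to 110863239, minus strand). Lyve1 had 11.9, 15.8 and 10.4 CPM in CCR1-KO, against 16.0, 17.8 and 12.5 CPM in WT. CCR1-KO replicate 66, low for most of the markers, had the highest Lyve1 of its group. The log2 fold change was -0.28 ± 0.20 (95% interval -0.74 to 0.19; adjusted p = 0.43, edgeR).

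Clec4g encodes the lectin LSECtin (chromosome 8, 3707064 to 3718653, minus strand). Clec4g had 30.5, 22.0 and 23.4 CPM in CCR1-KO, against 31.6, 25.0 and 17.2 CPM in WT. Every CCR1-KO library lay within the WT range, and the log2 fold change was 0.042 ± 0.23 (95% interval -0.49 to 0.57; adjusted p = 0.93, edgeR). Fcgr2b encodes the inhibitory Fc receptor, which sinusoidal cells use to remove immune complexes and which B cells and macrophages carry too (chromosome 1, 170958617 to 170976547, minus strand). Fcgr2b had 31.5, 20.7 and 29.1 CPM in CCR1-KO, against 45.2, 35.4 and 23.0 CPM in WT, the widest WT spread of the 5. Its log2 fold change was -0.35 ± 0.26 (95% interval -0.95 to 0.25; adjusted p = 0.44, edgeR). The intervals of all 5 sinusoidal markers include 0, and those of Stab2, Lyve1 and Fcgr2b also reach -0.68 or lower, so these 3 libraries a group set no close bound on them.

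Pecam1 and Kdr mark endothelium of every kind: Pecam1 encodes the junction protein CD31, also found on platelets and leukocytes, and Kdr the main receptor for VEGF-A. Pecam1 (chromosome 11, 106654217 to 106750628, minus strand) had 16.2, 10.7 and 11.1 CPM in CCR1-KO, against 20.3, 16.8 and 13.7 CPM in WT. CCR1-KO replicate 65 overlapped the WT range, and the log2 fold change was -0.42 ± 0.21 (95% interval -0.91 to 0.073; adjusted p = 0.27, edgeR). Kdr (chromosome 5, 75932827 to 75978458, minus strand) had 24.9, 16.3 and 20.6 CPM in CCR1-KO, against 24.9, 27.6 and 16.3 CPM in WT. The lowest libraries of both groups were level, and the log2 fold change was -0.16 ± 0.23 (95% interval -0.68 to 0.37; adjusted p = 0.72, edgeR).

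**Figure D2:**
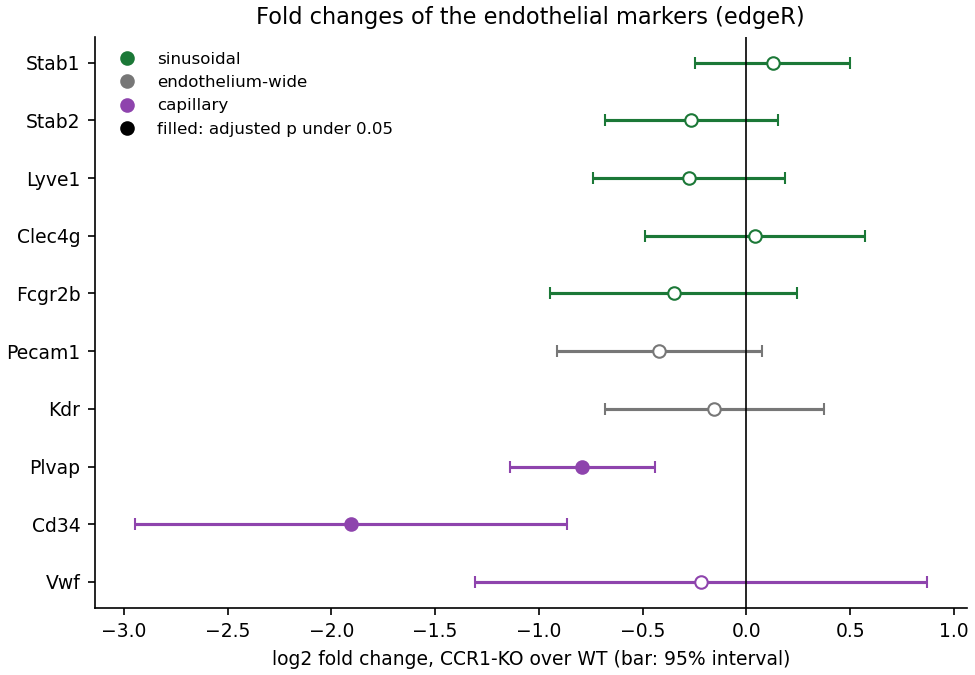
Log2 fold change of each marker, CCR1-KO over WT, with its 95% interval from edgeR; filled points passed an adjusted p of 0.05. The intervals of Plvap (-1.14 to -0.44) and Cd34 (-2.95 to -0.86) lie below 0, and the other 8 include it.

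A further 16 genes that mark endothelium in general were described beside the markers to show how endothelial transcripts as a whole stood. None of the 16 passed (without CCR1-KO replicate 65 Clec14a did, as lower), and 15 had a negative log2 fold change, 10 had CCR1-KO wholly below WT (17.4% of all genes did), and the median was -0.43. Clec14a, an endothelial lectin-like receptor, had 5.44 ± 2.49 CPM in CCR1-KO and 13.4 ± 3.26 CPM in WT (adjusted p = 0.061, edgeR; n = 3 each). Cdh5, the endothelial cadherin, had 8.77 ± 1.85 CPM in CCR1-KO and 14.2 ± 4.51 CPM in WT (adjusted p = 0.15, edgeR), and Tek, the angiopoietin receptor, 5.73 ± 1.15 CPM in CCR1-KO and 8.35 ± 1.23 CPM in WT (adjusted p = 0.16, edgeR). When libraries were scaled to these 16 genes, so that levels were relative to endothelial transcripts, Plvap had a log2 fold change of -0.32 (adjusted p = 0.34, edgeR) and Cd34 of -1.48 (adjusted p = 0.052, edgeR). On that scale all 5 sinusoidal markers and Pecam1, Kdr and Vwf had positive fold changes, Stab1 the largest at 0.63 (adjusted p = 0.078, edgeR), and none of them passed. That scaling moved the median of all genes to 0.49. Scaling by library totals alone moved it to -0.30, and there Plvap was at -1.07 and Cd34 at -2.26, while Stab1 and Clec4g turned to -0.14 and -0.22. The balance of all calls followed the scale: 501 genes were higher and 640 lower with TMM, 219 higher and 857 lower by library totals, and 2068 higher and 281 lower relative to endothelial genes.

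Ratios within a library do not depend on scaling. Plvap stood at 0.544, 0.573 and 0.717 times the Stab2 count in CCR1-KO replicates 65, 66 and 67, against 0.879, 0.765 and 0.963 times in WT replicates 62, 63 and 64, and the highest CCR1-KO ratio was under the lowest WT ratio. Cd34 stood at 0.0110, 0.0123 and 0.0320 times Stab2 in CCR1-KO, against 0.0303, 0.0568 and 0.0785 times in WT, with CCR1-KO replicate 67 just above WT replicate 62. Vwf over Stab2 was 0.151, 0.0586 and 0.0871 in CCR1-KO, against 0.122, 0.0781 and 0.108 in WT, and the groups overlapped. Over the sets, the mean log2 CPM of the 3 capillary markers minus that of the 5 sinusoidal markers was -2.79 ± 0.41 in CCR1-KO and -1.87 ± 0.41 in WT (SD, n = 3 each), ranging from -3.26 to -2.48 in CCR1-KO and from -2.15 to -1.40 in WT. The Plvap separation depended on the divisor. Over Lyve1, CCR1-KO replicate 65 (Plvap 29.2 and Lyve1 11.9 CPM) had a higher ratio than WT replicate 63 (39.7 and 17.8 CPM). These values describe genes chosen with earlier results known and carry no test.

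**Figure D3:**
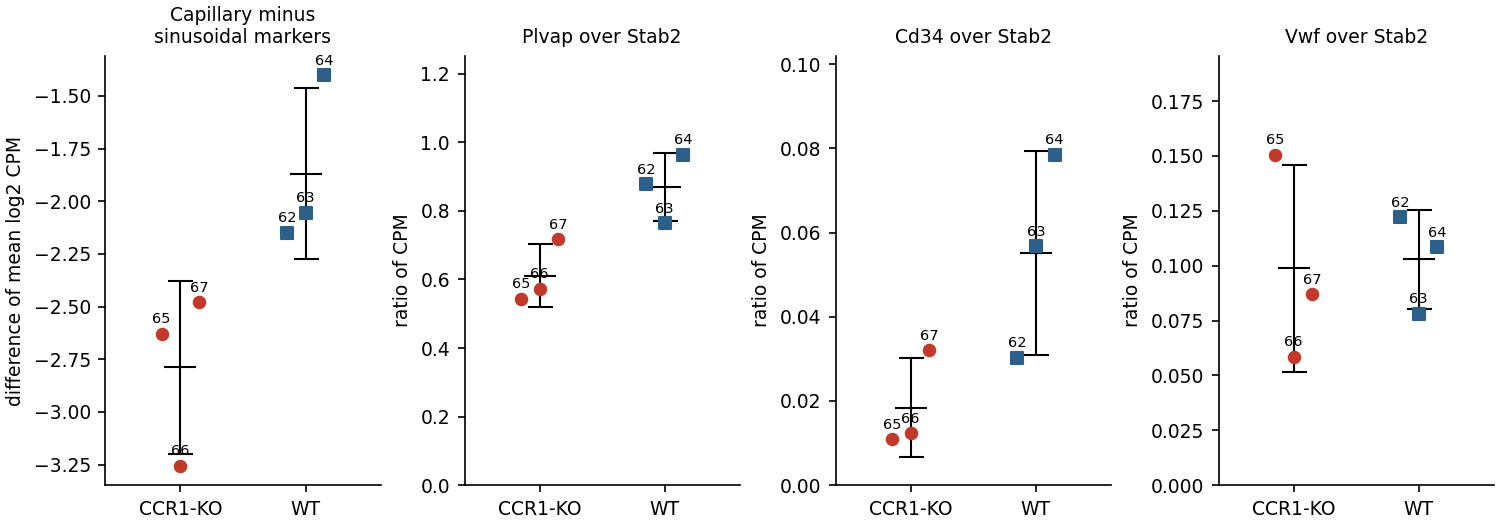
Within-library contrasts in CCR1-KO (circles) and WT (squares), with replicate numbers, mean and SD: the difference of mean log2 CPM between capillary and sinusoidal markers, and the ratios of Plvap, Cd34 and Vwf to Stab2. The groups are apart in the first 2 panels and overlap in the others, Cd34 by replicate 67 alone.

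Levels of different genes can be compared per length, as the deposited FPKM (fragments relative to gene length and library size, without TMM scaling). Plvap was the highest of the 10 in both groups, at 10.5 ± 3.17 FPKM in CCR1-KO and 22.2 ± 1.63 FPKM in WT (SD, n = 3 each). Clec4g followed with 8.62 ± 2.89 FPKM in CCR1-KO and 10.1 ± 2.49 FPKM in WT. Within each library Plvap was above Clec4g. In CCR1-KO replicates 65, 66 and 67 Plvap had 14.17, 8.30 and 9.17 FPKM, against 11.95, 7.12 and 6.78 FPKM for Clec4g. The gap was wider in WT replicates 62, 63 and 64, at 23.04, 20.33 and 23.26 FPKM for Plvap and 12.42, 10.31 and 7.45 FPKM for Clec4g. Stab2, Fcgr2b, Stab1 and Lyve1 lay between 3.60 and 4.03 FPKM on average in CCR1-KO and between 4.08 and 6.00 FPKM in WT. Their order differed between the CCR1-KO libraries. Kdr and Pecam1 had 1.91 ± 0.660 and 1.71 ± 0.695 FPKM in CCR1-KO and 2.57 ± 0.602 and 2.74 ± 0.405 FPKM in WT. Vwf and Cd34 were lowest, Vwf at 0.240 ± 0.209 FPKM in CCR1-KO and 0.323 ± 0.0751 FPKM in WT, and Cd34 at 0.0767 ± 0.0306 FPKM in CCR1-KO and 0.380 ± 0.147 FPKM in WT.

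Further endothelial genes were read from 8 lists holding 99 genes of the table, of which 94 were tested. Of these 94, 13 fell, 1 rose and 80 did not pass, with a median log2 fold change of -0.46. The share over all tested genes, for this and the list counts below, was 3.61% lower and 2.83% higher. Other sinusoidal genes resembled the 5 markers: 0 of 12 passed (median -0.29), and the smallest p was that of the clotting factor gene F8, at 5.63 ± 1.12 CPM in CCR1-KO and 9.39 ± 2.63 CPM in WT (adjusted p = 0.12, edgeR; n = 3 each). Ehd3, an endocytic protein enriched in sinusoidal cells, had 38.9 ± 3.77 CPM in CCR1-KO and 28.8 ± 7.56 CPM in WT and did not pass either (adjusted p = 0.22, edgeR). Of 12 other capillary genes 4 fell and 0 rose (median -1.16). That count was 7, 1 and 2 without CCR1-KO replicates 65, 66 and 67, and 0, 0 and 1 without WT replicates 62, 63 and 64. Lower calls over all genes moved too, from 640 of 17729 to 1409, 184 and 220 without CCR1-KO replicates 65, 66 and 67. Without WT replicates 62, 63 and 64 they were 120, 66 and 106. These 6 fits tested 18285 to 18482 genes, and counts below from such fits stand beside the same shifts. The caveolar coat gene Cavin2 fell to 5.42 ± 0.517 CPM in CCR1-KO, against 11.9 ± 2.01 CPM in WT (adjusted p = 0.017, edgeR). The fatty acid carrier gene Fabp4, also active in macrophages and fat cells, fell to 7.66 ± 1.79 CPM in CCR1-KO, against 17.3 ± 0.771 CPM in WT (adjusted p = 0.017, edgeR). Col15a1, a basement membrane collagen that fibroblasts make too, fell to 1.61 ± 0.770 CPM in CCR1-KO, against 8.09 ± 3.66 CPM in WT (adjusted p = 0.027, edgeR), and Cd200, a surface glycoprotein, to 0.610 ± 0.146 CPM in CCR1-KO, against 1.70 ± 0.387 CPM in WT (adjusted p = 0.044, edgeR). Cav1, the caveolin gene, went the other way without passing, at 3.71 ± 1.29 CPM in CCR1-KO and 2.50 ± 0.658 CPM in WT (adjusted p = 0.33, edgeR).

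Basement membrane genes, which endothelial and stellate cells share, fell in 5 of 11 tested with 0 higher (median -0.78), in 6 without CCR1-KO replicate 65 and in 1 without any other library. Nid1, which encodes the linker protein nidogen, had 9.89, 8.74 and 9.27 CPM in CCR1-KO, against 23.8, 28.6 and 42.7 CPM in WT (log2 fold change -1.77 ± 0.22, adjusted p = 0.0096, edgeR), and passed in all 6 fits without 1 library. The laminin genes Lamb1 and Lamc1, the perlecan gene Hspg2 and Nid2 were the others that fell, by 0.76 to 0.98 on the log2 scale, and each of them passed in 1 of those 6 fits. Col4a1 missed the threshold at 29.4 ± 4.92 CPM in CCR1-KO and 58.8 ± 20.4 CPM in WT (adjusted p = 0.052, edgeR). In the vein and artery list 1 of 13 passed (median -0.30, and -0.61 without CCR1-KO replicate 65): Gja4, the gap junction gene of connexin 37, rose to 3.21, 3.31 and 4.92 CPM in CCR1-KO, against 1.26, 0.712 and 0.887 CPM in WT (log2 fold change 2.00 ± 0.32, adjusted p = 0.017, edgeR). It passed in 4 of the 6 fits without 1 library, and the other arterial connexin of the list, Gja5, had 0.614 ± 0.370 CPM in CCR1-KO and 0.977 ± 0.399 CPM in WT (adjusted p = 0.48, edgeR). Without CCR1-KO replicate 65, Lhx6 of that list passed too, as lower, at -2.12 (adjusted p = 0.0086, edgeR).

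Among ligands and receptors of the VEGF and angiopoietin families, 2 of 12 fell and 0 rose (median -0.49). The fallen count was 2 without CCR1-KO replicate 65 or 66 and 0 without CCR1-KO replicate 67 or any 1 of the WT libraries. Nrp2, a co-receptor for VEGF and semaphorins, fell to 14.4 ± 2.77 CPM in CCR1-KO, against 26.8 ± 0.624 CPM in WT (adjusted p = 0.021, edgeR), and the ligand gene Vegfb fell to 4.40 ± 1.18 CPM in CCR1-KO, against 11.5 ± 2.34 CPM in WT (adjusted p = 0.024, edgeR). Vegfa, the ligand of the Kdr receptor, was higher in every CCR1-KO library, at 143, 165 and 209 CPM, against 121, 104 and 91.3 CPM in WT, but missed the threshold (log2 fold change 0.71 ± 0.18, adjusted p = 0.054, edgeR). Without CCR1-KO replicate 65, Vegfa passed at 0.83 (adjusted p = 0.023, edgeR) and the VEGF co-receptor gene Nrp1 passed as higher at 0.65 (adjusted p = 0.025, edgeR). In the Notch and flow list 2 of 12 fell and 0 rose (median -0.12): Edn1, the gene of the vasoconstrictor endothelin-1, had 0.141 ± 0.0649 CPM in CCR1-KO and 0.747 ± 0.118 CPM in WT (adjusted p = 0.040, edgeR), and Hes1, a target of Notch that hepatocytes and bile duct cells express too, 4.17 ± 1.48 CPM in CCR1-KO and 9.81 ± 2.00 CPM in WT (adjusted p = 0.049, edgeR). Both passed only without CCR1-KO replicate 65 among the 6 fits that left out 1 library, where the list's median was -0.37. No adhesion gene of 11 passed (median -0.37), the smallest p being that of Mcam at 3.87 ± 0.789 CPM in CCR1-KO and 6.68 ± 0.836 CPM in WT (adjusted p = 0.069, edgeR). Without CCR1-KO replicate 65, 3 adhesion genes, Cd44, Sele and Vcam1, passed as lower and the median was -0.75. Sele was near the floor, at 0 CPM in CCR1-KO replicates 66 and 67. In WT replicates 62, 63 and 64 Sele had 0.304, 0.305 and 0.432 CPM. Nid1 was the 1 gene of these lists to pass in all 6 fits that left out 1 library. Relative to the 16 general endothelial genes, only Nid1, Col15a1 and Gja4 of the 14 passed, and 3 genes that had not passed were higher: the sinusoidal gene Ehd3 at 0.96 (adjusted p = 0.019, edgeR), Vegfa at 1.23 (adjusted p = 0.012, edgeR) and Nos3, the endothelial nitric oxide synthase gene, at 1.27 (adjusted p = 0.031, edgeR). On that scale 2068 of all 17729 tested genes passed as higher and 281 as lower, and the median of all genes was 0.49.

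**Figure D4:**
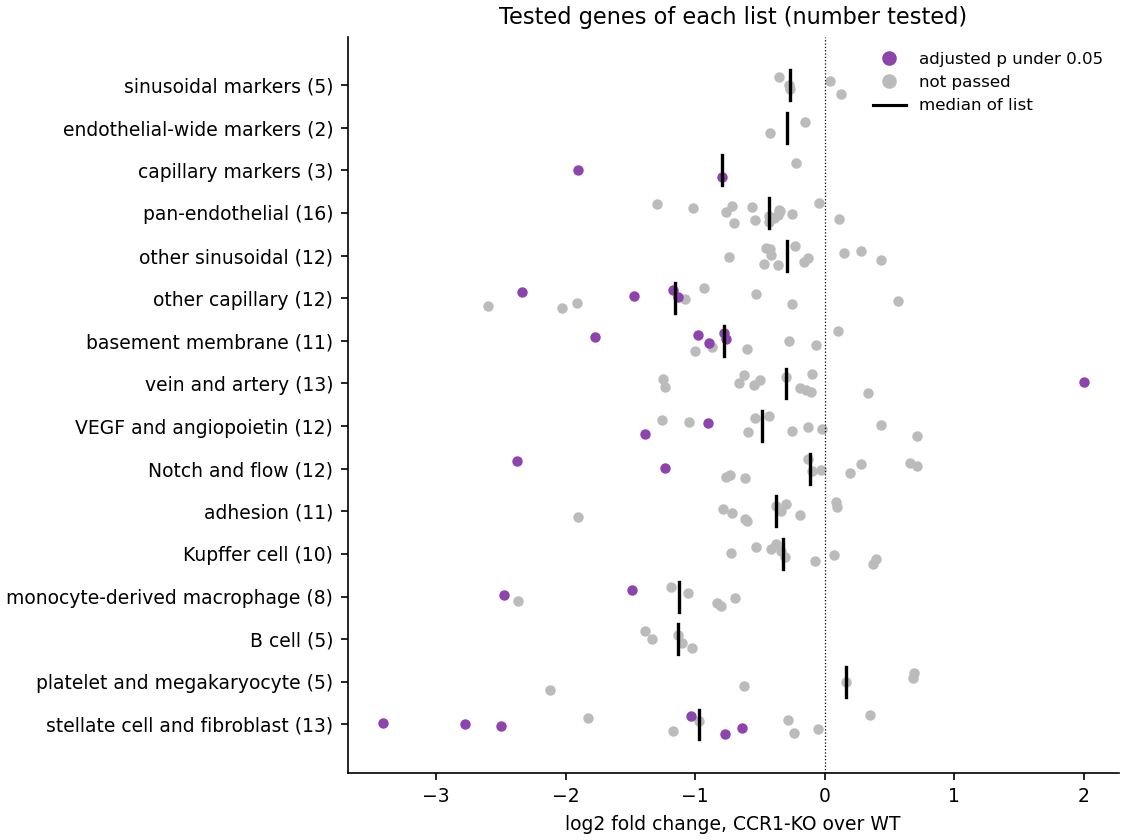
Log2 fold change, CCR1-KO over WT, of each tested gene (points) by list, with the number tested in brackets; purple points passed an adjusted p of 0.05 and black bars are list medians. Capillary, basement membrane, stellate, monocyte-derived macrophage and B cell lists have medians from -1.16 to -0.78, and the other sinusoidal list -0.29.

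Several markers are shared with other liver cells, whose genes were therefore read in the same libraries. Of all tested genes, 3.61% passed as lower and 2.83% as higher. Genes of stellate cells and fibroblasts, some of which carry Cd34, fell in 6 of 13 tested with 0 higher (median -0.97), the 4 of smallest p being the collagen genes Col3a1 and Col1a2, Cygb and Dcn, and their summed level was 182 to 198 CPM in CCR1-KO and 380 to 906 CPM in WT. The count of 6 was 5, 0 and 1 without CCR1-KO replicates 65, 66 and 67, and 2, 1 and 2 without WT replicates 62, 63 and 64. WT replicate 64 had the highest of these sums and the highest Cd34 and Col15a1. Monocyte-derived macrophage genes fell in 2 of 8, Itgax and Trem2, with 0 higher (median -1.12), with sums of 65.3 to 159 CPM in CCR1-KO and 178 to 198 CPM in WT. That count was 6 without CCR1-KO replicate 65 and 0 without any other library. Kupffer cell genes, from the resident macrophages of the liver, passed in 0 of 10 (median -0.32). Their sum was 372, 157 and 172 CPM in CCR1-KO replicates 65, 66 and 67 and 278, 323 and 204 CPM in WT replicates 62, 63 and 64, so replicate 65 was the highest CCR1-KO library there as in 8 of the 10 markers. Without replicate 65, 5 of the 10 Kupffer cell genes passed as lower, among them Csf1r and C1qb, and the median was -0.86. Of all genes, 1409 of 18360 passed as lower without replicate 65, against 640 of 17729 with all 6 libraries. Without CCR1-KO replicate 66 the Kupffer cell median was -0.081. B cell genes passed in 0 of 5 (median -1.13), with sums of 1.25 to 2.90 CPM in CCR1-KO and 3.68 to 5.20 CPM in WT. Without CCR1-KO replicate 65, 1 of them passed as lower and the median was -1.74. Platelet and megakaryocyte genes passed in 0 of 5 (median 0.17), with sums of 6.71 to 11.4 CPM in CCR1-KO and 6.90 to 8.31 CPM in WT. The smallest p was that of Pf4, at 0.210 ± 0.114 CPM in CCR1-KO and 0.917 ± 0.343 CPM in WT (adjusted p = 0.062, edgeR). Genes of lymphatic vessels passed in 0 of 4 (median 0.30). Mmrn1 and Ccl21a averaged 0.350 and 0.360 CPM in CCR1-KO and 0.218 and 0.239 CPM in WT. Pdpn went the other way, at 0.0669 CPM in CCR1-KO and 0.359 CPM in WT. Prox1 was level, at 111 CPM in CCR1-KO and 110 CPM in WT, far above the other genes of that list. Which cells the Prox1 reads came from was not tested. Smooth muscle genes passed in 0 of 3 (median 0.31), erythroid genes in 0 of 4 (median -0.11) and hepatocyte genes in 0 of 5 (median -0.11), while 1 of 5 bile duct genes, Spp1, fell (median -1.05). The hepatocyte median covers genes that went opposite ways, with the groups apart. Cyp3a11 had 396 CPM in CCR1-KO and 1411 CPM in WT (adjusted p = 0.062, edgeR). Cyp2e1 had 12083 CPM in CCR1-KO and 7356 CPM in WT (adjusted p = 0.085, edgeR). Without CCR1-KO replicate 65 both passed, Cyp3a11 as lower and Cyp2e1 as higher. The summed erythroid level was 548, 213 and 285 CPM in CCR1-KO replicates 65, 66 and 67. In WT replicates 62, 63 and 64 it was 438, 239 and 346 CPM. Without CCR1-KO replicate 65 the erythroid median was -0.87 and 1 of the 4, Hbb-bs, passed as lower. Without CCR1-KO replicate 66 that median was 0.20. The smooth muscle gene Tagln went against its list's median, at 3.77 CPM in CCR1-KO and 8.02 CPM in WT (adjusted p = 0.14, edgeR). No gene of these other-cell lists was without reads in all 6 libraries. The part of these cells in the levels or differences of Plvap, Cd34, Fcgr2b or the other markers was not tested.

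Gene models on the opposite strand overlap 6 of the 10 markers, and whether reads were counted by strand is not given. Plvap shares 1819 bases with Gtpbp3, which averaged 442 reads in CCR1-KO and 601 in WT, below the 1349 to 2335 reads of Plvap in CCR1-KO and the 3514 to 3891 in WT. Cd34 shares 5521 bases with Gm16897, which averaged 4.67 reads in CCR1-KO and 11 in WT. The models that overlap Stab1, Stab2, Clec4g and Fcgr2b were also far below their partners in reads, the closest being Nt5dc2 at 384 reads in CCR1-KO and 476 in WT over 112 bases shared with Stab1.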

How the data were processed

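Liver RNA was sequenced as poly(A)-selected, second-strand-marked paired libraries, per the labels' protocols. Cutadapt 1.9, StringTie 2.1.6 and HISAT2 2.2.1 are listed, without roles, beside edgeR and DESeq2 per the submitters' processing notes. The notes name GRCh38, but identifiers and coordinates are of mouse, GRCm38. The deposited table holds, per the file headers, whole-number counts, which were used as deposited, and FPKM values scaled by the authors to gene length and library size. How reads were assigned to strands or to several genes is not given. No column of other samples was present (0).

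Groups came from sample titles. The filterByExpr filter (minimum count 10, minimum total 15) left 17729 genes, which were tested with edgeR 4.0.16 (R 4.3.3; glmQLFit, glmQLFTest, TMM). Each SE was the size of the log2 fold change divided by the root of its F statistic. TMM factors ran from 0.779 to 1.06 in CCR1-KO and from 1.06 to 1.17 in WT, and 1 read was worth 0.0113 to 0.0167 CPM. Alternatives were DESeq2 1.42.0, limma 3.58.1 on log2(FPKM + 0.5) for genes of at least 0.5 FPKM in 3 libraries, other scalings and filters, and each library left out. The edgeR, DESeq2 and limma fits were tested on simulated counts. Replicate pairs differed by more than sampling noise (chi-square per degree of freedom at least 62.8). The genes and lists were chosen with earlier results of these data known. Genes were named by rule: the 10 markers, the genes of each list past the threshold (where more than 5, the 4 of smallest p), or the gene of smallest p, and for Stab2, Plvap and Cd34 the 3 genes of closest profile. Ehd3, Cav1, Gja5, Lhx6, Ly6a, Cdh5, Tek, Vegfa, Col4a1, Mmrn1, Ccl21a, Alb, Nrp1, Nos3, Cd44, Sele, Vcam1 and the genes of other cell types were chosen after their values were seen.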

Additional observations from a re-analysis of the deposited data

How the results depend on the processing

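No paired analysis was possible because the groups share no replicate number. The number of genes past the threshold, 1141, became 2349 with scaling to general endothelial genes, 735 with no filter on low counts, 2312 with DESeq2, 239 with limma on log2(FPKM + 0.5) without a filter, and 102 (without WT replicate 63) to 2419 (without CCR1-KO replicate 65) with 1 library left out. Filtered limma gave 223 higher and 1088 lower, with the median of all genes at -0.23. Plvap was lower in every alternative, but missed the threshold with endothelial scaling (-0.32) and unfiltered limma (-1.07); with 1 library left out it ran from -0.91 to -0.67. Cd34 was lower wherever it was fitted, and missed the threshold with median-ratio scaling (-1.89), endothelial scaling (-1.48), no filter (-1.92) and unfiltered limma (-0.60); with 1 library left out it ran from -2.39 to -1.65. Filtered limma had no value for Cd34 or Vwf, which are below its FPKM minimum. Endothelial scaling reversed Stab2 (0.22), Lyve1 (0.26), Fcgr2b (0.17), Pecam1 (0.076), Kdr (0.35) and Vwf (0.20), none of which passed on either scale. Stab1 and Clec4g reversed by library totals (-0.14 and -0.22), and in limma with a pseudocount of 0.5 (-0.16 and -0.23, with or without the filter), 0.1 (-0.19 and -0.24) and 1 (-0.14 and -0.22). With 1 library left out, Stab1 ran from -0.027 to 0.23, Clec4g from -0.16 to 0.27 (both negative without CCR1-KO replicate 65, Clec4g also without WT replicate 64), Stab2 from -0.49 to -0.17 and Vwf from -0.99 to 0.12. The median of the sinusoidal markers ran from -0.34 to -0.10 and that of the capillary markers from -0.99 to -0.67. The median of the sinusoidal markers moved to -0.53 by library totals, 0.26 with endothelial scaling, and -0.53, -0.58 and -0.53 in limma with 0.5, 0.1 and 0.5 unfiltered; that of the capillary markers moved to -0.32 with endothelial scaling. Where scaling changed, all genes shifted with it; the cause of the other changes was not tested. Cd34 rests on 29 to 311 reads a library.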

Other observations

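The balance between the stabilins differed between the groups although neither gene passed on its own. Stab2 had 0.984, 0.840 and 0.922 times the scaled count of Stab1 in CCR1-KO replicates 65, 66 and 67, against 1.19, 1.19 and 1.26 times in WT replicates 62, 63 and 64. The ratio does not depend on library scaling, and the groups did not overlap. It was picked after the values were seen and was not tested.

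Genes whose scaled profile over the 6 libraries was most like that of a marker were sought among 11592 tested genes with a mean of at least 1 CPM, by the root mean square difference of log2 CPM after centring each gene on its own mean. For Plvap the closest were Cul7 (0.038), Hps1 (0.046) and Lgmn (0.049). For Cd34 they were Fkbp10 (0.32), Fam118a (0.33) and Mfap4 (0.34), and for Stab2 Mycl (0.039), Zfp974 (0.041) and Ccdc82 (0.049). Mfap4, a microfibril protein gene, had 0.763, 0.628 and 1.67 CPM in CCR1-KO, against 3.07, 2.99 and 7.30 CPM in WT. None of the 9 is among the endothelial genes listed here, and a close profile over 6 libraries says nothing of shared control.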
